A study of Danio rerio with 2 samples.

Results

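The genes described here are 8 interferon-stimulated genes of the zebrafish intestine: isg15, mxa, rsad2, gig2h, trim25, ifih1, irf7 and irf1b. They were taken by symbol, and all 8 were found among the 25432 genes of the deposited matrices. Their gene identifiers were ENSDARG00000086374 for isg15, ENSDARG00000021688 for mxa, ENSDARG00000004952 for rsad2, ENSDARG00000103444 for gig2h, ENSDARG00000104396 for trim25, ENSDARG00000018553 for ifih1, ENSDARG00000045661 for irf7 and ENSDARG00000043249 for irf1b. The study asked what loss of nod2, an intracellular sensor of bacterial cell wall fragments, does to the cells of the adult gut. One library of dissociated intestinal cells was made from nod2-/- fish and 1 from WT fish of the TL strain (nod2+/+). Each library pooled 5 fish of 6 months, 3 females and 2 males. The fish of both genotypes were siblings of an in-cross and shared tanks, and the mutant line descends from founders with a single frameshift deletion in nod2. The labels name no infection and no interferon treatment.

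Interferons are secreted proteins that tell cells of a virus infection. They act through receptors and JAK kinases on STAT proteins, which enter the nucleus and, with interferon regulatory factors (IRFs), turn on a large set of genes. Some of these genes encode sensors and transcription factors of the same pathway, and others encode effectors that block viral growth. In the mammalian gut, epithelial cells and leukocytes both carry this pathway, and mammalian stem cells are known for expressing some of its effectors without a stimulus.

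With 1 library per genotype there was no replicate and no test, and the fish within a library cannot be told apart. Values are unique molecular identifiers (UMIs, 1 per captured RNA molecule) summed over the cells of a class, and CPM, the UMIs of a gene divided by all UMIs of that class and library and multiplied by 1000000. Ratios are log2 of the CPM in nod2-/- over that in WT unless another ratio is named, and were taken where both libraries together held at least 20 UMIs. The 95% intervals given with them (exact, conditional binomial) and those of shares of cells (exact, Clopper-Pearson) cover counting error only, not the spread between fish. A count of 0 was given a floor of 3 UMIs per library. The nod2-/- library held 5599 cells and 22244173 UMIs (median 1940 UMIs per cell), and the WT library held 5891 cells and 34052268 UMIs (median 3400). The WT library was therefore the more precise of the pair, and shares of cells with a UMI were also taken after each cell had been thinned to 1000 UMIs. The transcript of nod2 itself had 75 UMIs (3.37 CPM) in nod2-/- cells and 139 UMIs (4.08 CPM) in WT cells, which does not check the genotype because a small deletion need not lower the count. The libraries shared 10 cell barcodes.

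Cells were grouped by marker genes, and each class carries the name of the type its markers resemble (progenitor-like, enterocyte-like and so on, with "-like" left off hereafter). Progenitors, the cluster led by the Notch target her15.1, numbered 243 in nod2-/- and 249 in WT, of which 108 and 115 had a her15.1 UMI. Leukocytes numbered 1114 in nod2-/- and 816 in WT. The other epithelial classes were cycling cells (59 and 58), enterocytes (2319 and 2741), lysosome-rich enterocytes, which take up and digest luminal protein (732 and 568), BEST4 cells (352 and 422), goblet cells (140 and 376), tuft cells (46 and 61) and enteroendocrine cells (166 and 119), again with nod2-/- before WT. "All epithelial cells" means progenitors plus these classes, 4057 cells in nod2-/- and 4594 in WT. A keratin-rich epithelial class (52 and 35 cells) and a stromal class (256 and 93 cells) were kept apart. All 10 markers of the stromal list were counted in the stromal class, but krt15, a keratin gene, led it, and its keratin-rich marker list summed to 9526 CPM in nod2-/- and 2815 CPM in WT and its endothelial list to 762 CPM and 283 CPM, with 5 of 5 endothelial genes higher in nod2-/-, so its makeup was not the same in both libraries. Leukocytes also differed in makeup: the granulocyte list summed to 1361 CPM in nod2-/- and 84.0 CPM in WT, the macrophage list to 426 and 278 CPM, and the T cell list to 616 and 936 CPM. The leukocyte class held 5 clusters, and its B cell list was near 0 (8 UMIs in nod2-/- and 3 in WT).

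gig2h had its highest CPM in progenitors and tuft cells in both libraries, and it was low in leukocytes, stromal cells and keratin-rich cells. irf1b was lower in nod2-/- epithelium, in enterocytes and goblet cells among others, and did not differ beyond counting error in leukocytes or progenitors. The classical antiviral effectors isg15, mxa and rsad2 were sparse in both libraries, and 7 of the 16 cells that held rsad2 held isg15 too.

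**Figure D1:**
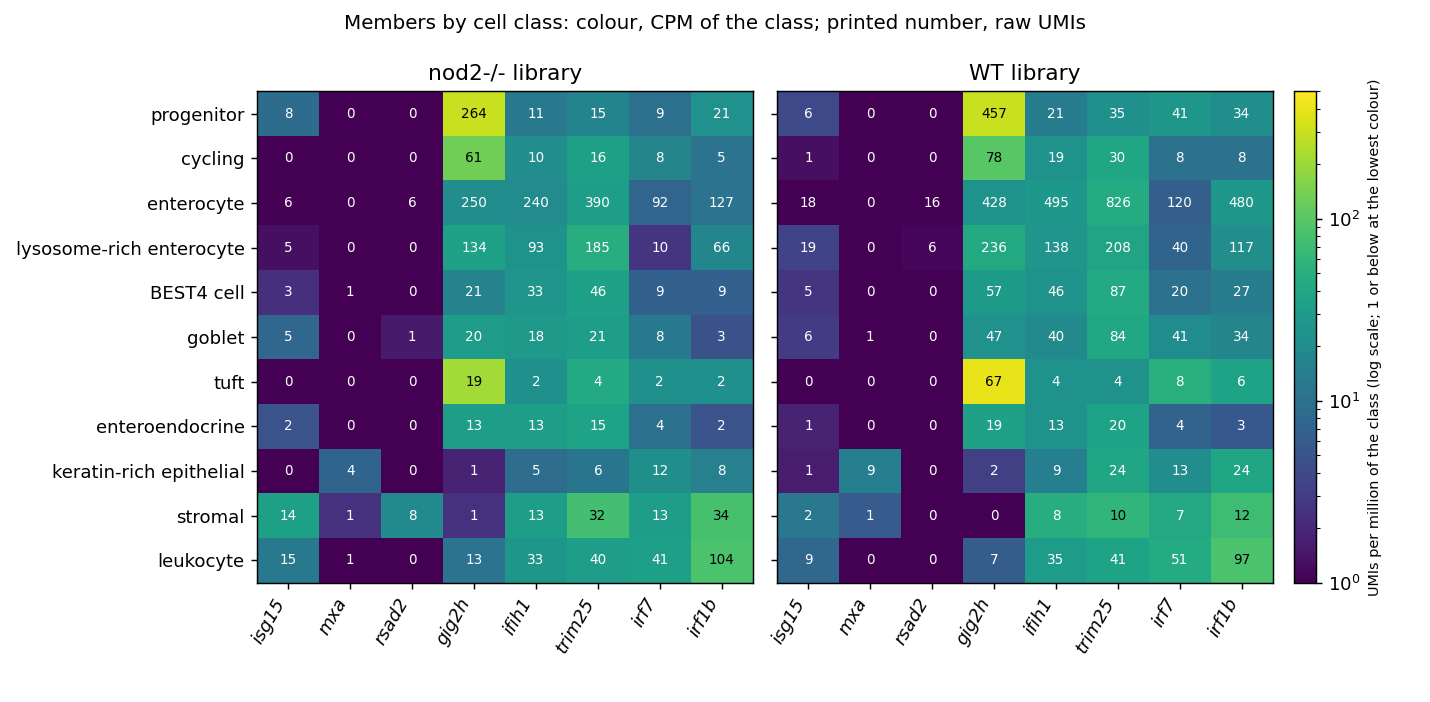
UMIs of the 8 genes in 11 cell classes (rows) of the nod2-/- library (left) and the WT library (right). The colour is CPM of the class on a log scale and the printed number is the raw UMI count; gig2h is brightest in progenitors and tuft cells, and mxa and rsad2 are at 0 in most classes.

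Over all cells, gig2h had the most UMIs of the 8 genes, 818 in nod2-/- and 1454 in WT. trim25 had 787 and 1422, ifih1 had 481 and 862, irf1b had 387 and 864, and irf7 had 217 and 383. The 3 other genes were sparse in both libraries. isg15 had 60 UMIs in 46 nod2-/- cells and 69 UMIs in 43 WT cells, rsad2 had 15 UMIs in 8 cells and 22 UMIs in 8 cells, and mxa had 8 UMIs in 8 cells and 11 UMIs in 9 cells. Of the 7 genes with at least 20 UMIs over all cells, 0 differed by 2-fold or more between the libraries, where 4.62% of 17435 genes were at least 2-fold lower in nod2-/- and 6.12% at least 2-fold higher. The median ratio of the 7 was -0.22, and that of all those genes was -0.05.

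In all epithelial cells, 7 of the 8 genes had at least 20 UMIs. The ratio was below 0 for these 7, with a median of -0.31, beside a median of -0.13 over 16057 genes, of which 62.7% were lower in nod2-/-. The interval lay below 0 for 5 genes and included 0 for isg15 and rsad2. The share of all epithelial genes with an interval below 0 was not counted, so the 5 cannot be read as a trait of the list. gig2h was 1 of the 5 (-0.19, -0.32 to -0.07). Without cells of 6 or more UMIs of the gene its interval included 0 (-0.07, -0.20 to 0.07), whereas that of irf1b did not (-0.83, -1.05 to -0.61). At 2-fold or more, 1 of the 7 genes was lower and 0 were higher, where 6.32% of all genes were at least 2-fold lower and 3.31% at least 2-fold higher. That gene was rsad2, with 7 and 22 UMIs, and its interval included 0 (-1.02, -2.49 to 0.26). Summed over the 8 genes, epithelial cells held 2308 UMIs in nod2-/- (117.5 CPM) and 4529 in WT (148.4 CPM), a ratio of -0.34 (-0.41 to -0.26). Enterocytes held 1111 and 2383 of these UMIs, a ratio of -0.51 (-0.61 to -0.41). Under 12 alternative settings the enterocyte ratio of the sum lay between -0.53 and -0.098. With trimmed-mean (TMM) scaling of the libraries in place of totals, the epithelial ratio of the sum was -0.22 (-0.30 to -0.15).

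**Figure D2:**
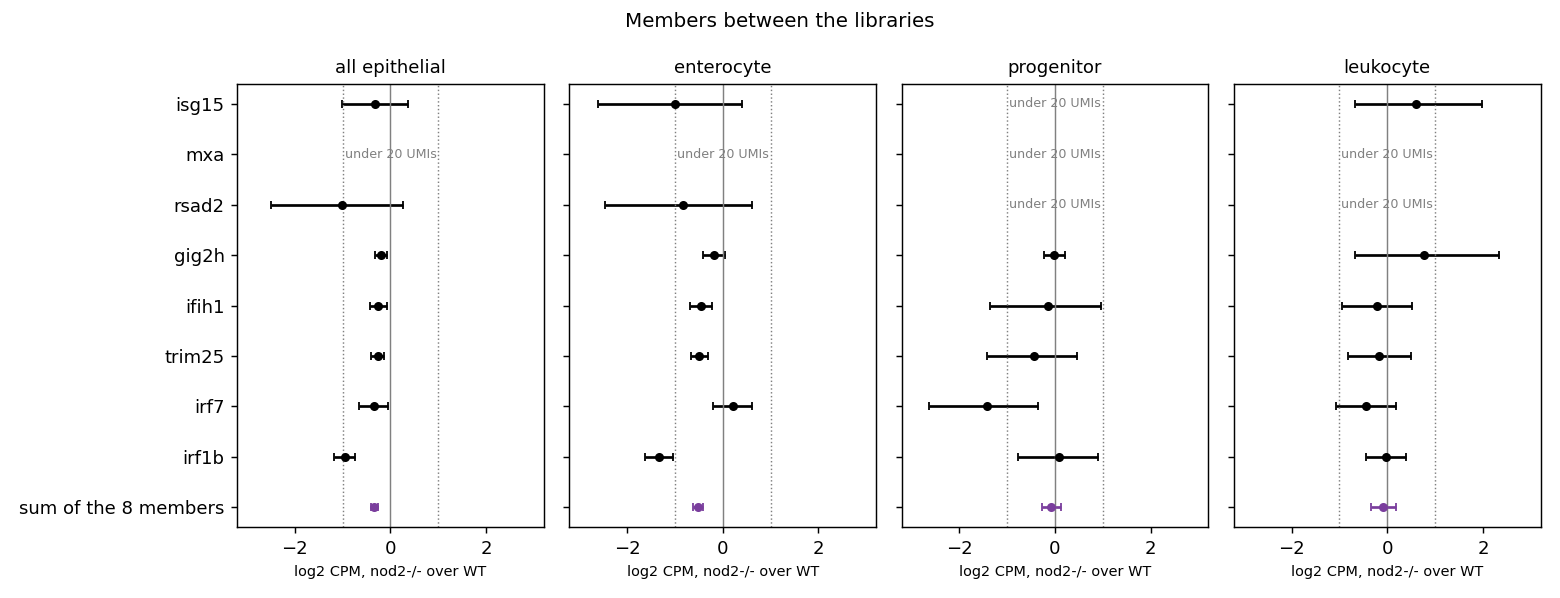
log2 ratio of CPM, nod2-/- over WT, for each gene and for their sum (horizontal axis), in all epithelial cells, enterocytes, progenitors and leukocytes. Points are single-library ratios, bars are 95% intervals for counting error, and dotted lines mark 2-fold; in all epithelial cells and in enterocytes irf1b and the sum lie left of 0, and in leukocytes each bar crosses 0.

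gig2h belongs to a fish family that was first found in virus-treated carp cells and whose members lie side by side in the zebrafish genome. In the RefSeq gene order gig2h sits between gig2i and gig2g in a run of gig2l, gig2i, gig2h, gig2g, gig2f and gig2d, so UMIs may be split among near-identical copies. Progenitors held 264 of its UMIs in nod2-/- and 457 in WT, which was 293.7 CPM in nod2-/- and 296.8 CPM in WT. The ratio between libraries was -0.02 (-0.24 to 0.21), so no difference was detectable in the summed UMIs. After each cell had been thinned to 1000 UMIs, with shallower cells left out, the ratio was -0.55 (-1.10 to -0.03). Relative to the other epithelial cells of the same library, progenitors had 10.6-fold more gig2h in nod2-/- (log2 3.41, 3.19 to 3.63) and 9.23-fold more in WT (log2 3.21, 3.04 to 3.37). With progenitors taken as the epithelial cells that held a her15.1 UMI, the log2 ratio was 2.36 in nod2-/- (2.11 to 2.60) and 2.21 in WT (2.04 to 2.38). Within progenitors, the cells with a her15.1 UMI did not stand apart from those without one: the log2 ratio of with over without was -0.10 in nod2-/- (-0.46 to 0.25) and 0.09 in WT (-0.18 to 0.37). A gig2h UMI was present in 56.4% of nod2-/- progenitors and 71.9% of WT progenitors, and after thinning in 21.9% and 28.9%. A gig2h UMI was found in 1.08% of nod2-/- leukocytes (13 UMIs, 10.6 CPM, median depth 910). In WT leukocytes the share was 0.858% (7 UMIs, 6.26 CPM, median depth 1116.5). Stromal and keratin-rich cells had a lower CPM than leukocytes in both libraries.

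The other epithelial classes held gig2h at lower levels, apart from tuft cells in WT. Tuft cells, chemosensory cells of few UMIs in all, had 19 UMIs in nod2-/- (213.4 CPM) and 67 in WT (411.3 CPM), a ratio of -0.95 (-1.77 to -0.19). That ratio rested on 46 and 61 cells, and the 3 WT cells with most gig2h held 25 of the 67 UMIs. Under the filter worded in the study's methods (200 to 2500 UMIs per cell) it was 0.20. Cycling cells had 61 UMIs in nod2-/- and 78 in WT, a ratio of 0.37 (-0.13 to 0.88), and enterocytes had 20.8 CPM in nod2-/- and 23.7 CPM in WT. Lysosome-rich enterocytes were unequal: their cluster 5, led by fabp6, had 46.1 CPM in nod2-/- and 54.9 CPM in WT, whereas cluster 8, led by ctsl.1, had 12.5 CPM and 14.1 CPM. The log2 ratio of cluster 5 over cluster 8 was 1.89 in nod2-/- (1.13 to 2.74) and 1.96 in WT (1.33 to 2.67). Stromal cells held 1 UMI in nod2-/- and 0 in WT. Pancreatic acinar cells held 0 UMIs in nod2-/-, where the floor of 67.4 CPM lay above the 26.1 CPM (28 UMIs) of WT acinar cells, so no difference could be detected there.

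**Figure D3:**
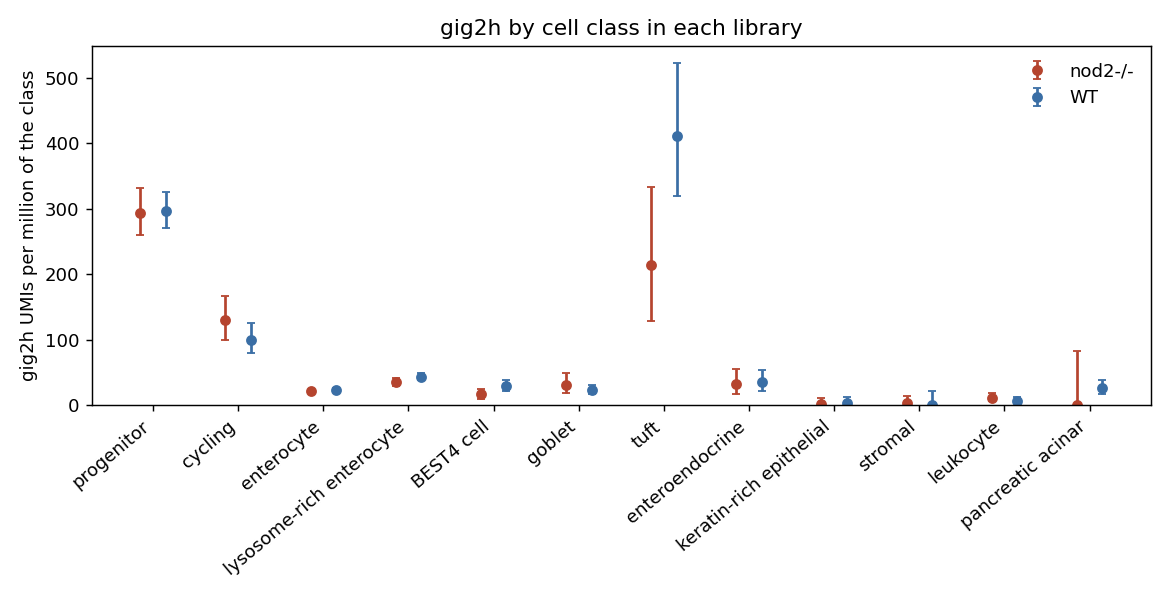
gig2h in CPM of each cell class (vertical axis) in nod2-/- (left point of each pair) and WT (right point), with 95% intervals for counting error. Progenitors stand at 293.7 and 296.8 CPM and tuft cells at 213.4 and 411.3 CPM; enterocytes and leukocytes are at or under 23.7 CPM in both libraries.

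isg15 encodes a ubiquitin-like protein that is attached to other proteins. Progenitors held 8 UMIs in nod2-/- (8.90 CPM) and 6 in WT (3.90 CPM), too few for a ratio. Enterocytes held 6 UMIs in nod2-/- (0.50 CPM) and 18 in WT (0.996 CPM), and all epithelial cells 29 and 56, a ratio of -0.31 (-1.01 to 0.36). A single WT lysosome-rich enterocyte held 12 of those 56 UMIs, and without cells of 6 or more UMIs the epithelial ratio was 0.03 (-0.69 to 0.74). isg15 was densest in stromal cells (14 UMIs, 34.0 CPM, in nod2-/- and 2 UMIs, 12.03 CPM, in WT), and next in leukocytes (15 UMIs, 12.3 CPM, and 9 UMIs, 8.05 CPM). The part of the unequal endothelial and keratin-rich markers of the stromal class in its isg15 and rsad2 values was not tested. The leukocyte ratio was 0.61 (-0.68 to 1.98), so the libraries did not differ beyond counting error.

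rsad2 encodes viperin, a radical-SAM enzyme that makes a chain-terminating nucleotide. Its 22 WT UMIs lay in 8 cells, 6 enterocytes and 2 lysosome-rich enterocytes. Of its 15 nod2-/- UMIs, 8 lay in 6 stromal cells, 6 in a single enterocyte and 1 in a goblet cell. The epithelial ratio rested on that enterocyte. Without cells of 6 or more UMIs, of which WT had 0, there was 1 epithelial UMI in nod2-/- and 22 in WT. That cutoff took out the nod2-/- enterocyte and kept every WT cell, of which the highest held 4 UMIs. No difference can be read from it, since the counts rest on a few cells. Progenitors and leukocytes held 0 in both libraries, which allows up to 3.34 CPM in nod2-/- and 1.95 CPM in WT progenitors and up to 2.45 and 2.68 CPM in leukocytes. For stromal cells, the 19.4 CPM of nod2-/- stood against a WT floor of 18.0 CPM, so a difference was not detectable at this depth. isg15 was found in 3 of the 8 nod2-/- cells with rsad2 (37.5%, 8.52 to 75.5%) and in 4 of the 8 WT cells (15.7 to 84.3%). The comparison cells lacked rsad2, came from the same classes pooled, and were at least as deep as the shallowest cell with rsad2. Among them, isg15 was found in 12 of 1903 nod2-/- cells (0.631%) and 8 of 1503 WT cells (0.532%). The shares of the classes were not matched: 6 of the 8 nod2-/- cells with rsad2 were stromal. The 3 nod2-/- cells with both genes were a stromal cell, an enterocyte and a goblet cell. Of all 256 nod2-/- stromal cells, 8 held isg15 (3.1%). The 5 nod2-/- cells and 5 WT cells with at least 2 of isg15, mxa and rsad2 compare with 0.143 and 0.136 cells from the product of the single shares.

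mxa encodes a dynamin-like GTPase with antiviral activity and has several close relatives in zebrafish (mxb to mxg), among which reads may be split. The keratin-rich class held 4 of its 8 UMIs in nod2-/- and 9 of its 11 in WT, or 7.44 and 14.7 CPM. Progenitors, enterocytes, lysosome-rich enterocytes and tuft cells held 0 in both libraries. Leukocytes held 1 UMI in nod2-/- and 0 in WT.

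trim25 encodes a ubiquitin ligase that in mammals acts on the RNA sensor RIG-I. It was spread over all classes, with 35.2 CPM in nod2-/- and 42.4 CPM in WT over all epithelial cells, a ratio of -0.27 (-0.40 to -0.13). Enterocytes had 390 and 826 UMIs, a ratio of -0.49 (-0.67 to -0.32), and keratin-rich cells had 6 and 24 UMIs, a ratio of -1.81 (-3.39 to -0.48). Lysosome-rich enterocytes went the other way, with 185 UMIs in nod2-/- (48.1 CPM) and 208 in WT (38.1 CPM), a ratio of 0.34 (0.04 to 0.63). In their clusters 5 and 8 taken apart, the intervals included 0. Progenitors had 15 UMIs in nod2-/- and 35 in WT, and their level was below that of the other epithelial cells in both libraries, by a log2 ratio of -1.11 in nod2-/- (-1.96 to -0.38) and -0.93 in WT (-1.46 to -0.45). Under the methods' filter the ratio between libraries turned to 0.06 in all epithelial cells and to 0.26 in enterocytes, both with intervals that included 0.

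ifih1 encodes MDA5, a cytoplasmic sensor of long double-stranded RNA. All epithelial cells had 420 UMIs in nod2-/- (21.4 CPM) and 776 in WT (25.4 CPM), a ratio of -0.25 (-0.42 to -0.08). Enterocytes had 240 and 495 UMIs and a ratio of -0.45 (-0.68 to -0.23). Lysosome-rich enterocytes had 93 and 138 UMIs with a ratio of -0.06 (-0.46 to 0.33). Between the lysosome-rich clusters the order was the reverse of that of gig2h: cluster 8 had 35.9 CPM in nod2-/- and 33.9 CPM in WT, and cluster 5 had 18.4 and 21.8 CPM. Leukocytes had 33 UMIs in nod2-/- and 35 in WT (-0.21, -0.94 to 0.51), close to the epithelial level in both libraries.

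irf1b is a zebrafish copy of IRF1, a transcription factor that interferon gamma induces in mammals. Enterocytes held 127 UMIs in 111 nod2-/- cells (10.6 CPM) and 480 UMIs in 339 WT cells (26.6 CPM), a ratio of -1.33 (-1.62 to -1.04). The ratio was below 0, with the interval also below 0, in enterocyte clusters 0 (-0.95, -1.42 to -0.49), 1 (-1.43, -1.94 to -0.95), 3 (-0.93, -1.85 to -0.11) and 6 (-1.94, -2.998 to -1.001). Cluster 4 of the enterocytes had 2 UMIs in nod2-/- and 16 in WT. The lysosome-rich clusters were not alike. Cluster 5 had 27 UMIs in nod2-/- and 87 in WT (-1.08, -1.76 to -0.45), whereas cluster 8 had 39 and 30 UMIs (0.66, -0.06 to 1.40). Goblet cells held 3 and 34 UMIs (-1.85, -4.19 to -0.18), and keratin-rich cells 8 and 24 (-1.40, -2.76 to -0.19), a ratio that turned to 0.025 (-0.66 to 0.72) at clustering resolution 1.2. Over all epithelial cells the counts were 235 in nod2-/- and 709 in WT, a ratio of -0.96 (-1.18 to -0.74), which stayed between -1.63 and -0.85 under 12 alternative settings.

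In progenitors and leukocytes, irf1b did not differ between the libraries beyond counting error. Progenitors had 21 UMIs in nod2-/- (23.4 CPM) and 34 in WT (22.1 CPM), a ratio of 0.08 (-0.78 to 0.91). Under 13 alternative settings the progenitor ratio lay between -1.08 and 1.32, so these counts leave it poorly fixed. Leukocytes had 104 UMIs in nod2-/- (85.0 CPM) and 97 in WT (86.7 CPM), a ratio of -0.03 (-0.44 to 0.39). The difference between those ratios and that of enterocytes was not tested. A list of 20 early stress genes (fos, jun, egr and heat shock genes), chosen after the irf1b values had been seen, was also lower in nod2-/- enterocytes: its sum was 973.6 CPM in nod2-/- and 1671 CPM in WT, with 4 of the 20 genes higher in nod2-/-. The heat shock gene hsp70l gave 5488 of the 11676 UMIs of that sum in nod2-/- and 18013 of the 30206 in WT. By cluster, irf1b and the sum of the list were both lower in nod2-/- in clusters 0, 1, 6 and 5. The ratio of the sum was -0.97 in cluster 0, -0.67 in cluster 1, -0.57 in cluster 6 and -0.26 in cluster 5. Other clusters were less alike. In cluster 3, where irf1b was lower in nod2-/-, 12 of the 20 genes were higher, although the ratio of the sum was -0.36. In cluster 4, where irf1b had 2 and 16 UMIs, the ratio of the sum was -0.09, and in cluster 8, where irf1b was not lower, it was -0.50. The sum was 11273 and 11731 CPM in progenitors and 21191 and 25740 CPM in leukocytes. Leukocyte markers in all epithelial cells summed to 63.0 CPM in nod2-/- and 67.0 CPM in WT, with 0 of the 8 genes at 0. The part of early stress genes in the irf1b difference was not tested.

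**Figure D4:**
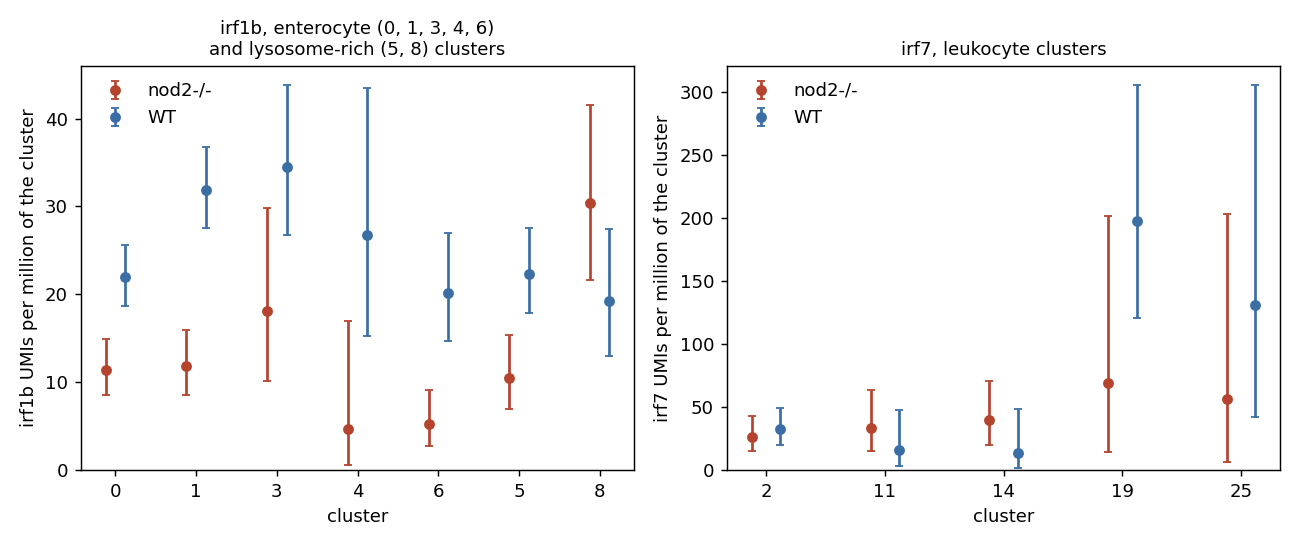
Left, irf1b in CPM of each enterocyte cluster (0, 1, 3, 4, 6) and lysosome-rich cluster (5, 8); right, irf7 in CPM of each leukocyte cluster, with nod2-/- left and WT right in each pair and 95% intervals for counting error. irf1b is lower in nod2-/- in each cluster shown but cluster 8, and WT irf7 is highest in leukocyte cluster 19, where both intervals are wide.

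irf7 encodes the IRF that drives type I interferon genes in mammals and is itself interferon-induced. Progenitors held 9 UMIs in 8 nod2-/- cells (10.0 CPM) and 41 UMIs in 30 WT cells (26.6 CPM), a ratio of -1.41 (-2.64 to -0.35). Lysosome-rich enterocytes held 10 and 40 UMIs (2.60 and 7.33 CPM), a ratio of -1.49 (-2.66 to -0.47). Enterocytes, with 92 UMIs in nod2-/- and 120 in WT, did not differ beyond counting error (0.21, -0.20 to 0.61). Cluster 3 of the enterocytes stood apart with 17 UMIs in nod2-/- and 14 in WT (1.51, 0.40 to 2.64). In leukocytes the counts were 41 in nod2-/- (33.5 CPM) and 51 in WT (45.6 CPM), a ratio of -0.44 (-1.07 to 0.18). Leukocyte cluster 19, which has blnk and sash1b among its leading genes, held 3 UMIs in 38 nod2-/- cells (68.9 CPM) and 20 UMIs in 60 WT cells (197.5 CPM). Its interval included 0 (-1.52, -3.91 to 0.23).

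In progenitors taken apart, of the 5 genes with at least 20 UMIs there, 4 were lower and 1 higher in nod2-/-, where 49.2% of 6823 genes were lower. Their median ratio was -0.16, beside 0.01 over all those genes. At 2-fold or more, 1 was lower (irf7) and 0 were higher, where 4.76% of genes were at least 2-fold lower and 3.43% at least 2-fold higher. Summed over the 8 genes, progenitors held 328 UMIs in nod2-/- (364.9 CPM) and 594 in WT (385.7 CPM), a ratio of -0.08 (-0.28 to 0.12). The cells with a her15.1 UMI held 162 and 346 of these UMIs, a ratio of -0.19 (-0.47 to 0.08). After thinning, the ratio of the sum in progenitors was -0.58 (-1.06 to -0.11).

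In leukocytes, 6 of the genes had at least 20 UMIs, 4 lower and 2 higher in nod2-/-, where 52.9% of all genes were lower. Of the 6 intervals, 0 excluded 0. None of the 6 reached 2-fold, where 4.88% of 7257 genes were at least 2-fold lower and 5.8% at least 2-fold higher, and their median was -0.10, beside -0.03 over all genes. Summed over the 8 genes, leukocytes held 247 UMIs in nod2-/- (202.0 CPM) and 240 in WT (214.5 CPM), a ratio of -0.09 (-0.35 to 0.18). Against the epithelial cells of the same library, the sum was higher in leukocytes by a log2 ratio of 0.78 in nod2-/- (0.59 to 0.97) and 0.53 in WT (0.34 to 0.72). With TMM scaling it was 0.32 in nod2-/- (0.12 to 0.51) and 0.11 in WT, where the interval included 0 (-0.09 to 0.29). The genes differed in this: irf7 was higher in leukocytes by 2.21 in nod2-/- and 2.30 in WT, and irf1b by 2.83 (2.48 to 3.17) in nod2-/- and 1.90 (1.58 to 2.21) in WT. gig2h was lower in leukocytes, by a log2 ratio of -1.91 in nod2-/- and -2.86 in WT. ifih1 and trim25 lay within 0.34 of the epithelial level on the log2 scale in both libraries, with intervals that included 0. When leukocytes were clustered again on their own, irf1b was highest over both libraries in the type 2 innate lymphoid cells (il13, gata3), with 10 UMIs in nod2-/- and 7 in WT (210 CPM over both). The T cells of that second clustering had 11 UMIs of irf1b in nod2-/- and 15 in WT (-0.20, -1.47 to 1.02).

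Cells that held several of the 8 genes were more numerous than the product of the single shares gives. At least 3 genes were found in 75 nod2-/- cells, where the product gives 21.4, and in 214 WT cells, where it gives 83.8. Such cells were deep, with a median of 11348 UMIs in nod2-/- and 15988.5 in WT, and the part of depth in the excess was not tested. Progenitors had 3 such cells in nod2-/- (2.66 from the product) and 16 in WT (12.1), and leukocytes 4 (0.543) and 2 (0.829).

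A wider set of effectors (isg15, rsad2, the mx genes, ifit8 to ifit16 except ifit13, cmpk2 and usp18, 19 genes in all), chosen after the cells with rsad2 had been seen, was used to count cells with several of them. At least 3 were detected in 7 nod2-/- cells and 35 WT cells, of which 3 and 30 were enterocytes. Among enterocytes of at least 5000 UMIs the counts were 2 of 942 in nod2-/- (0.212%, 0.026 to 0.765%) and 26 of 1427 in WT (1.82%, 1.19 to 2.66%). In single WT enterocytes with at least 3 of these effectors, mxg, a dynamin-like relative of mxa, reached 26 UMIs. The gene was not confined to such cells. All epithelial cells together had 91 mxg UMIs in nod2-/- and 700 in WT, a ratio of -2.31 (-2.64 to -1.99). The classes were not alike: enterocytes had 10 mxg UMIs in nod2-/- (0.83 CPM) and 606 in WT (33.5 CPM), whereas lysosome-rich enterocytes had 79 in nod2-/- (20.6 CPM) and 65 in WT (11.9 CPM). In all epithelial cells, 26 WT cells with 6 or more mxg UMIs held 347 of the 700. These cells were counted by mxg alone. They are not the same set as the 26 deep enterocytes above, although some cells belong to both. Without cells of 6 or more UMIs the mxg ratio was -1.33 (-1.68 to -0.99).

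The rest of the interferon pathway was read from a list of 147 symbols, of which 119 were in the files. In all epithelial cells 91 had at least 20 UMIs. Of these, 60 were lower and 31 higher in nod2-/-, with 8 at least 2-fold lower, 0 at least 2-fold higher and a median ratio of -0.19, where 62.7% of all genes were lower, 6.32% were at least 2-fold lower and the median was -0.13. In progenitors the split of 41 genes was 21 lower and 20 higher (3 and 0 at 2-fold or more), where 49.2% of all genes were lower, 4.76% at least 2-fold lower and 3.43% at least 2-fold higher. In leukocytes the split of 62 genes was 39 and 23 (2 and 3 at 2-fold or more), where 52.9% of all genes were lower, 4.88% at least 2-fold lower and 5.8% at least 2-fold higher.

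Interferon genes themselves were rarely counted. ifnphi1, a type I interferon, had 19 epithelial UMIs in nod2-/- and 42 in WT (-0.51, -1.37 to 0.31), and 2 leukocyte UMIs in each library. ifngr1, a receptor chain for interferon gamma, had 541 and 1036 epithelial UMIs (-0.30, -0.45 to -0.15), and the receptor chain crfb1 had 316 and 584 (-0.25, -0.45 to -0.05). Receptors as a list had 4 lower and 2 higher of 6 in all epithelial cells, where 62.7% of all genes were lower. Below the receptors, the kinase gene jak1 had 1180 and 2037 UMIs (-0.15, -0.26 to -0.05), and the kinase gene tyk2 had 422 and 815 (-0.31, -0.49 to -0.14). stat2, a transcription factor of the type I interferon signal, did not differ beyond counting error, with 982 and 1541 UMIs (-0.01, -0.13 to 0.10).

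Among sensors and adaptors, 7 of 11 were lower and 4 higher in nod2-/- epithelium, and none reached 2-fold, where 62.7% of all genes were lower. mavs, the adaptor used by MDA5, had 1356 UMIs in nod2-/- and 2535 in WT (-0.27, -0.36 to -0.17), and ikbke, a kinase that acts on IRFs, had 283 and 655 (-0.57, -0.78 to -0.37). Of the other IRFs, 6 of 8 were lower, against the same 62.7%. irf8, which marks myeloid cells, had 5 epithelial UMIs in nod2-/- and 58 in WT (-2.90, -4.58 to -1.60), but 44 and 13 leukocyte UMIs (1.63, 0.71 to 2.65) in a class whose granulocyte and macrophage markers were also higher in nod2-/-.

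Effectors were lower in 18 and higher in 11 of 29 in nod2-/- epithelium, with 4 at least 2-fold lower, beside the 62.7% lower and 6.32% at least 2-fold lower of all epithelial genes. The 4 included ifit14, a tetratricopeptide effector, with 16 and 84 UMIs (-1.76, -2.63 to -0.97), mxd with 12 and 41 (-1.14, -2.20 to -0.18) and cmpk2, the neighbour kinase of rsad2 in vertebrates, with 2 and 18 (-2.53, -5.69 to -0.47). gbp4, a guanylate-binding protein gene, was higher in nod2-/-, with 184 and 153 UMIs (0.90, 0.59 to 1.22). In leukocytes effectors were lower in 7 and higher in 9 of 16, where 52.9% of all genes were lower. At 2-fold or more, 0 were lower and 2 higher, where 4.88% and 5.8% of all genes were. Those 2 were ifi45, with 29 UMIs in nod2-/- and 7 in WT (1.92, 0.70 to 3.36), and ifi46, with 46 and 17 (1.31, 0.48 to 2.20). mxd, the leukocyte effector with most UMIs, went the other way, with 63 UMIs in nod2-/- (51.5 CPM) and 93 in WT (83.1 CPM).

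Antigen processing genes, which interferon gamma induces, were lower in 7 and higher in 5 of 12 in nod2-/- epithelium, where 62.7% of all genes were lower. The immunoproteasome gene psmb9a had 225 UMIs in nod2-/- and 551 in WT epithelium (-0.66, -0.89 to -0.43), psmb12 had 220 and 566 (-0.73, -0.96 to -0.50), and b2m, the light chain of MHC class I, had 15130 and 30298 (-0.37, -0.39 to -0.34). ifi30, a lysosomal thiol reductase gene, was higher, with 10350 and 11350 UMIs (0.50, 0.46 to 0.54). In leukocytes b2m had 1748 and 1892 UMIs (-0.24, -0.34 to -0.15), and 10 of the 12 genes were lower, where 52.9% of all leukocyte genes were.

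Of 8 inhibitors in nod2-/- epithelium, 6 were lower and 2 higher, where 62.7% of all genes were lower. At least 2-fold lower were 2, where 6.32% of all genes were. In leukocytes 4 of 6 were lower and 2 higher, where 52.9% of all genes were lower. At least 2-fold lower was 1, where 4.88% of all genes were. socs1a, which blocks JAK kinases, passed 2-fold in both compartments. It had 57 UMIs in nod2-/- and 180 in WT epithelium (-1.02, -1.48 to -0.59) and 57 and 117 UMIs in leukocytes (-1.17, -1.65 to -0.70). Within the gig2 family, gig2d, of the same run as gig2h, also had its highest class level in progenitors in each library. It had 41 UMIs there in nod2-/- (45.6 CPM) and 63 in WT (40.9 CPM). The same held for gig2i, with 9 UMIs in nod2-/- (10.0 CPM) and 19 in WT (12.3 CPM), and for gig2g in nod2-/- only. Of that run, gig2f had 0 progenitor UMIs in both libraries, and gig2l had 0 in nod2-/- and 1 in WT. gig2e had 139 and 262 epithelial UMIs (-0.28, -0.59 to 0.02).

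Likeness between genes was described over 22 points, 11 classes in each library, by Pearson's r of log2(CPM + 10). The points share libraries, depth and cell composition, and no test was made. Genes most like gig2h were zgc:114119 (0.85), snrpd1 (0.83) and snrpg (0.81). Most like isg15 were mfge8b (0.90), robo4 (0.89) and arhgap20b (0.88), and most like irf1b were znf704 (0.87), sema4ab (0.86) and arhgap29b (0.86). Among the 8 genes, trim25 and ifih1 had r = 0.75, irf1b and irf7 0.73, and rsad2 and isg15 0.71, while gig2h had a negative r with each of the 7 others, from -0.55 with mxa to -0.07 with irf7.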

How the data were processed

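Single-cell suspensions of pooled adult zebrafish intestines were captured with the 10x Genomics 3′ v3.1 kit. The authors' Cell Ranger 7.0.1 (named in the submitters' processing notes, with the GRCz11 build) gave the deposited counts, raw UMIs per gene and cell, which were used as deposited. The 11490 cells were all kept: the filter worded in the study's methods (200 to 2500 UMIs, at most 25% mitochondrial UMIs) would keep 2872 nod2-/- and 2252 WT cells, and was run as an alternative. The study itself reports 11490 cells, a number that this filter does not give, so values under it need not describe the study's own set of cells. Of 10 genes taken by symbol, 2 are not reported here and enter no count or sum. The genes and the pathway, marker and effector lists were chosen with earlier results of these data known.

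Cells were clustered with Seurat 5.3.0 in R 4.3.3 (2000 variable genes asked for, canonical correlation integration, 50 components, resolution 0.8), with 131 genes, those 10 and the interferon pathway list among them, kept out of the variable genes. A cluster took the name of the marker list with most genes among its 10 leading genes by fold, with at least 3 markers counted (2-fold over the median cluster and in 5% of cells), or, with none among the 10, 80% of the list counted. This rule was set after the clusters had been seen, and clusters 22, 23 and 24 stayed unnamed. Names and class sizes are therefore rebuilt and may differ from the study's. Scrublet (scanpy 1.11.5) made 0 automatic calls in both libraries, so the caller had not worked, and no cell was removed as a doublet.

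UMIs were summed per class and library and divided by the class total (CPM), with exact 95% intervals from scipy 1.17.1. The scripts were tested on simulated data. A gene was called where both libraries together had at least 20 UMIs and the CPM differed by at least 2-fold. Named genes of the pathway list were, per sub-list, the 3 with most UMIs and the 3 furthest from 0 with at least 100 UMIs. cmpk2 and irf8, mxd in all epithelial cells, and ifi45 and ifi46 in leukocytes, lie outside that rule. They are named because they passed 2-fold, after their values were seen. edgeR 4.0.16 gave only the TMM factors. Gene order came from RefSeq GRCz12tu, another build, so no coordinates are given. Promoter and protein sequences were not used here.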

Additional observations from a re-analysis of the deposited data

Results flagged for a closer look

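The ratio of trim25 between the libraries had opposite signs in different classes, with intervals for counting error that excluded 0 in each: -0.49 in enterocytes, -1.81 in keratin-rich cells and 0.34 in lysosome-rich enterocytes. Taken apart, the lysosome-rich clusters had intervals that included 0: 0.35 (-0.03 to 0.73) in cluster 5 and 0.25 (-0.22 to 0.72) in cluster 8. Under the methods' filter the enterocyte ratio was 0.26, with an interval that included 0. The difference between classes was not tested, since each genotype had a single library.

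In clusters that no marker list named, 20 UMIs of irf7 lay in cluster 22 and 36 of gig2h in cluster 24, counted over both libraries and above the floor of 3 UMIs. These clusters hold 32 and 18 nod2-/- cells and 39 and 26 WT cells.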

How the results depend on the processing

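Of the 15 main results, 155 of 190 alternative values stayed within the counting interval of the main value or within 1.5 times of a count, 35 did not and 0 reversed. Of 97 results on single genes or partial sums, 1078 of 1155 values stayed, 71 moved and 6 reversed. A value was called reversed only where the main interval excluded 0 and the sign changed. Counts of genes, and ratios whose main interval included 0, could therefore not reverse, so the low numbers of reversals are no measure of stability for them.

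The log2 ratio of the sum was -0.22 in all epithelial cells with TMM factors and -0.58 in progenitors after thinning. For gig2h in progenitors over the other epithelial cells, the methods' filter gave 3.86 in nod2-/- and 4.05 in WT, leaving out high Scrublet scores 3.68 and 3.42, the mean over cells 3.65 and 3.69, her15.1-positive cells as progenitors 2.36 and 2.21, and thinning 3.70 in WT. For the sum in leukocytes over epithelial cells, TMM gave 0.32 in nod2-/- and 0.11 in WT.

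The filter reversed trim25 in all cells (0.19), all epithelial cells (0.063) and enterocytes (0.26), and gig2h in tuft cells (0.20). Thinning reversed isg15 in WT leukocytes over epithelial cells (-0.11). Resolution 1.2 reversed irf1b in keratin-rich cells (0.025). The cause was not tested.

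Genes at least 2-fold lower: under the filter 399 in all cells, 336 in all epithelial cells and 43 in progenitors; after thinning 526, 557 and 77; with no minimum of UMIs 1906, 2540, 2285 and, in leukocytes, 3587; as means over cells 586 in progenitors. At least 2-fold higher: under the filter 45 in progenitors; after thinning 705 in all cells, 82 in progenitors and 253 in leukocytes; with no minimum 2610, 1941 in all epithelial cells, 2631 in progenitors and 2158 in leukocytes; as means over cells 961 in all epithelial cells and 714 in progenitors; without leukocyte clusters 14 and 25, chosen after seeing the data, 200 in leukocytes. The main counts were 805, 1015, 325 and 354 lower and 1067, 531, 234 and 421 higher.

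No paired analysis was possible because each genotype had 1 library. The promoter motif counts were not run. Depth per cell was low in leukocytes, at a median of 910 UMIs per cell in nod2-/- and 1116.5 in WT.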
